A study of Homo sapiens with 4 samples.

Results

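The insulin-like growth factor (IGF) signalling genes examined here were 9 of the 23605 genes listed for these libraries, chosen by symbol: the receptors IGF1R, IGF2R and INSR, the receptor adaptors IRS1 and IRS2, and the IGF-binding proteins IGFBP2, IGFBP3, IGFBP4 and IGFBP5. RNA was sequenced from LCC9 cells, a breast cancer line descended from MCF-7 that is labelled tamoxifen-resistant with wild-type estrogen receptor alpha. The A7 group (2 libraries) received A7, a code-named compound that the labels call a BRCA1 mimetic, for 24 h, and the vehicle group (2 libraries) received vehicle (DMSO) for the same time. All 4 samples were grown without phenol red in 5% charcoal-stripped serum, which holds little estrogen, so neither group had added estrogen or tamoxifen per the labels. Whether the 2 libraries of a group stem from separate cultures is not stated, so every p-value rests on the variation among these libraries, which may be technical.

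IGF1R and INSR are receptor tyrosine kinases that can pair with each other, and on binding IGF1, IGF2 or insulin they phosphorylate the docking proteins IRS1 and IRS2, which recruit PI3-kinase and so activate AKT. IGF2R carries no kinase and mainly removes IGF2 from the cell surface and delivers lysosomal enzymes. The secreted IGF-binding proteins hold the ligands away from the receptors or, when cut by proteases, release them. In estrogen receptor-positive breast cells IGF1R, IRS1 and IGFBP4 are known estrogen-responsive genes.

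The authors deposited FPKM, that is fragments per length of transcript and per number of mapped fragments. Each library was divided here by its median ratio to the mean profile, and the quotients are called scaled FPKM. From the steps between low values the libraries held roughly 4600000 and 3500000 fragments with A7 and 2500000 and 2400000 with vehicle, which is shallow. In A7 replicate 1 the most frequent step was not the lowest, and counted from it that library held roughly 2200000 fragments, below both vehicle libraries. Of 4663 genes with a mean FPKM from 0.1 to 1, however, that library had the smallest share listed at 0, 9.33%. The share was 16.6% in A7 replicate 2 and 20% and 21.9% in the vehicle libraries. All 8 markers of luminal breast epithelium (among them ESR1, KRT8, EPCAM and GATA3) were present, with summed levels of 1017 and 772 scaled FPKM with A7 and 1150 and 914 with vehicle. Endothelial markers summed to less than 0.1 in every library, and the leukocyte markers PTPRC, CD3E and CD14 were listed at 0 throughout. The 5 leukocyte markers summed to 4.86 and 4.56 with A7 and to 5.23 and 4.72 with vehicle, all of it from CD68 and LYZ. Basal or myoepithelial markers summed to 13.3 and 12.5 with A7 and to 15.2 and 17.0 with vehicle, mostly ACTA2, while KRT5 and KRT14 were listed at 0. Fibroblast markers set the libraries apart. Their 6 genes summed to 11.0 and 0.963 scaled FPKM with A7 and to 0.416 and 0.421 with vehicle, with DCN, a matrix proteoglycan, alone at 8.40 in A7 replicate 1. Of these 6 markers 5 and 3 were above 0 in the A7 libraries and 1 in each vehicle library, and PDGFRB was listed at 0 in all 4. Such counts depend on depth, and the part of depth in them was not tested.

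The 9 genes spanned a wide range of levels, and the binding proteins stood at both ends of it. IGFBP5 and IGFBP4 together held 88.8% and 84.4% of the 9 genes' summed scaled FPKM with A7 and 91.0% and 88.2% with vehicle. The promoters of this pair and of IGF2R, whose level differed most between the groups, are shown here for the last 120 bases before the annotated start, from RefSeq (GRCh38.p14). Capitals mark TATTTAA in IGFBP5, TATAAA in IGFBP4 and GGGCGG, the core of a GC box, in IGF2R. Since the deposited tables hold no positions and were made on GRCh37, these coordinates belong to the sequences only.
IGFBP5, chr2:216695550-216695669, minus strand: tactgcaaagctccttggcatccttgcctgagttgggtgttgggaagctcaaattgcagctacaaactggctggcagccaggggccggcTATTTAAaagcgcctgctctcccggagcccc
IGFBP4, chr17:40443330-40443449, plus strand: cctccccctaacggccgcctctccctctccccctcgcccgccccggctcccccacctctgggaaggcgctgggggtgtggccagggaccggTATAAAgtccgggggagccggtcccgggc
IGF2R, chr6:159968962-159969081, plus strand: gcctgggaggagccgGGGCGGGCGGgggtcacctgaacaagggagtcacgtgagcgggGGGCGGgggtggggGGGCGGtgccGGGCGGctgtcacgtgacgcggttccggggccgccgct

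TATAAA and TATTTAA, both forms of the TATA element, were searched on both strands in the 250 bases before the start after the sequences had been read. IGFBP4 held TATAAA at positions -29 to -24 and IGFBP5 held TATTTAA at -31 to -25, counted back from the base before the start as -1. Neither form was found in the windows of the other 7 genes. Of 35116 promoters in the same table, 10.7% held TATAAA and 4.17% held TATTTAA. The GC box core GGGCGG, searched likewise and present in 42.6% of promoters, occurred 6 times in IGF2R (overlapping matches counted), 5 times in IRS2, 4 times each in INSR and IRS1, 2 times each in IGF1R and IGFBP3, 1 time in IGFBP4 and not in IGFBP5. IGFBP2 has 3 windows in the table, of which 2 held 1 match each. The estrogen receptor half-site GGTCA, searched on both strands and found in 32.6% of promoters, occurred 2 times in IGF2R and 1 time each in IGFBP3 and in the first IGFBP2 window. A match is only a run of letters, and nothing about binding was measured.

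IGFBP5, which encodes the most conserved of the binding proteins and binds matrix and ligand, was the most abundant of the 9 and the lowest with A7 relative to vehicle among those tested. It stood at 27.2 and 26.9 scaled FPKM with A7 and at 36.6 and 32.7 with vehicle. Both A7 libraries lay below both vehicle libraries, and the A7 pair was almost level. The means were 27.1 ± 0.2 with A7 and 34.7 ± 2.8 with vehicle (SD, n = 2 each), 1.28-fold lower with A7. On log2(scaled FPKM + 1) the difference, A7 minus vehicle, was -0.34 (SE 0.14, 95% interval -0.69 to 0.0032), with an unadjusted limma p of 0.0516 and an adjusted p of 0.806 over 8952 genes, so it did not pass. By roughly 1339 fragments with A7 and 1036 with vehicle, the A7 to vehicle ratio, corrected for depth, was 0.777 (95% counting interval 0.716 to 0.843), which covers counting error only and leaves out the spread between samples. Of the 6 tested members IGFBP5 alone had groups that did not overlap, against 36.9% of all tested genes (18.3% higher and 18.6% lower with A7).

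IGFBP4, which binds IGFs with high affinity and is known mainly as an inhibitor, had the second highest level and almost equal means in both groups. It stood at 28.7 and 17.4 scaled FPKM with A7 and at 29.2 and 16.6 with vehicle. Replicate 1 was high and replicate 2 low in both groups, so the groups overlapped fully. The means were 23.1 ± 8.0 with A7 and 22.9 ± 8.9 with vehicle (SD, n = 2 each; log2 difference 0.018, 95% interval -0.80 to 0.84, limma adjusted p = 0.996). The ratio of replicate 1 to replicate 2 was 1.66 with A7 and 1.76 with vehicle. Of 3280 genes averaging 10 FPKM or above, 16 had replicate 1 at least 1.5 times as high in both groups (0.488%) and 6 had replicate 2 so (0.183%). IGFBP5 did not share this split, with ratios of 1.01 with A7 and 1.12 with vehicle. As a result the ratio of IGFBP5 to IGFBP4 was 0.947 and 1.55 in the A7 libraries and 1.25 and 1.97 in the vehicle libraries, and this ratio differed more within the groups than between them.

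The other 2 binding proteins were at the limit of detection. IGFBP2, often abundant in other epithelial tumours, was listed at 0.322 and 0 scaled FPKM with A7 and at 0 and 0.609 with vehicle, which corresponds to about 2 fragments in 1 library of each group. IGFBP3, a main carrier of IGFs in serum, was listed at 0.103 and 0.132 with A7 and at 0 in both vehicle libraries. That is about 1 fragment in each A7 library, so no fold is given and a difference was not detectable at this depth. IGFBP2 and IGFBP5 are neighbours on chromosome 2, with 7668 bases between them in the RefSeq annotation. IGFBP5 was the highest of the 9 genes, at 30.9 scaled FPKM over the 4 libraries, whereas IGFBP2 averaged 0.233 and IGFBP3 alone was lower.

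**Figure D1:**
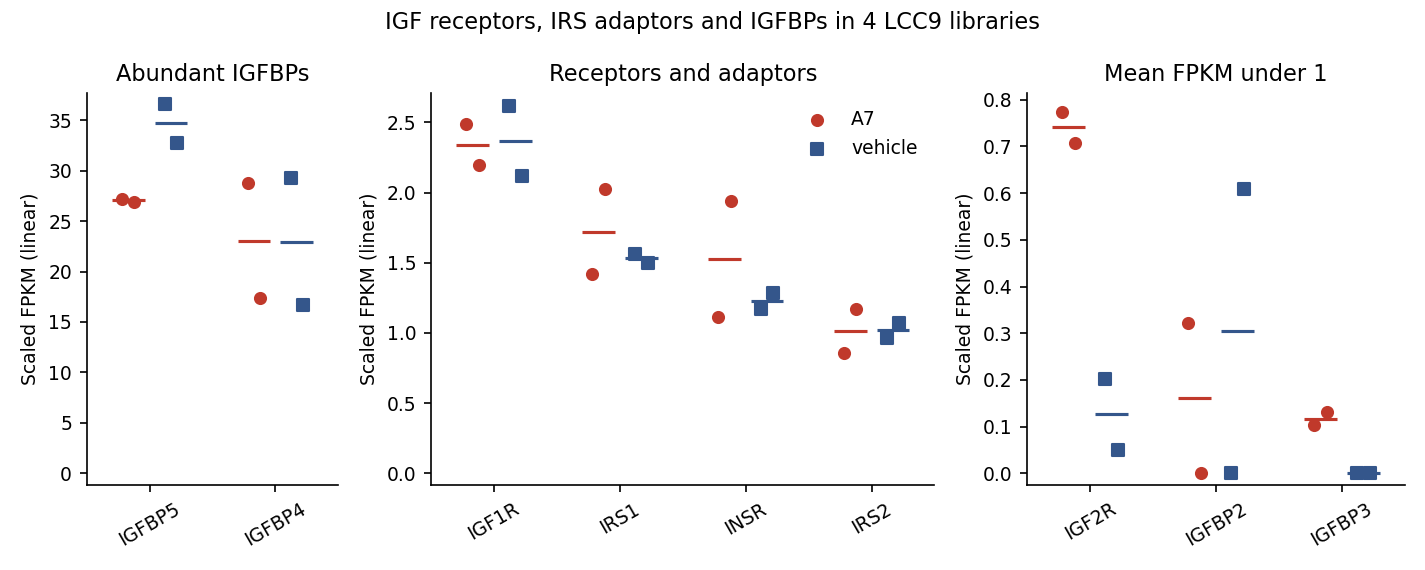
Scaled FPKM (linear axes, 3 ranges) of the 9 genes in each library, with A7 as circles left of vehicle as squares, bars at group means, and replicate 1 left of replicate 2. IGFBP5 and IGF2R are separated by group, as is IGFBP3 at about 1 fragment per A7 library, whereas IGFBP4 is separated by replicate number, at 28.7 and 29.2 in replicate 1 and 17.4 and 16.6 in replicate 2.

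The signalling receptors were expressed at low levels, and their means differed little between A7 and vehicle. IGF1R, the main receptor for both IGFs, stood at 2.49 and 2.198 scaled FPKM with A7 and at 2.62 and 2.12 with vehicle. The vehicle values enclosed the A7 values. The means were 2.34 ± 0.20 with A7 and 2.37 ± 0.35 with vehicle (SD, n = 2 each), with a log2 difference of -0.0084 (95% interval -0.51 to 0.49, limma adjusted p = 0.997), so a change of up to about 0.5 log2 units either way is within the interval. Rescaling to TPM, which shifted the median of all genes to 0.174, gave 0.135 for IGF1R, or -0.039 against that shift.

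INSR, the insulin receptor, stood at 1.12 and 1.94 scaled FPKM with A7 and at 1.17 and 1.29 with vehicle. A7 replicate 2 was the highest and A7 replicate 1 the lowest of the 4 libraries. Its log2 difference of 0.16 (SE 0.25) had a limma adjusted p of 0.919, and without A7 replicate 2 it was -0.073. IGF1R exceeded INSR in every library, with ratios of 2.23 and 1.13 with A7 and 2.23 and 1.65 with vehicle.

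IRS1 and IRS2 were, like INSR, highest in A7 replicate 2 and lowest in A7 replicate 1. IRS1, the main docking protein for IGF1R in luminal breast cancer cells, stood at 1.42 and 2.03 scaled FPKM with A7 and at 1.56 and 1.501 with vehicle (log2 difference 0.096, SE 0.22, limma adjusted p = 0.953; -0.063 without A7 replicate 2). IRS2, its close relative, stood at 0.860 and 1.17 with A7 and at 0.967 and 1.07 with vehicle (log2 difference -0.0058, SE 0.23, limma adjusted p = 0.998). For both adaptors the A7 libraries lay on either side of the vehicle pair. IRS1 exceeded IRS2 in each library, at a ratio of 1.65 and 1.73 with A7 and 1.62 and 1.40 with vehicle, so the A7 ratios lay just above the vehicle ratios and the gap was smaller than the spread of the vehicle pair. About 65 fragments with A7 and 40 with vehicle lie behind IRS2 and about 132 and 72 behind IRS1, so the 95% counting intervals of the ratio per depth, 0.649 to 1.49 and 0.821 to 1.49, already span such differences.

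In order of level over the 4 libraries, IGFBP5 (30.9 ± 4.7 scaled FPKM, SD) was followed by IGFBP4 (23.0 ± 6.9), IGF1R (2.35 ± 0.24), IRS1 (1.63 ± 0.27), INSR (1.38 ± 0.38) and IRS2 (1.02 ± 0.13). Values of IGFBP5 and IGFBP4 overlapped, as did those of IRS1 with INSR and of INSR with IRS2. Every value of IGFBP4 lay above every value of IGF1R, and every value of IGF1R above every value of IRS1.

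IGF2R, with a mean FPKM of 0.435, lay under the minimum of 1 for the test and showed the widest separation of the groups. It stood at 0.775 and 0.707 scaled FPKM with A7 and at 0.202 and 0.0511 with vehicle. Both A7 libraries lay well above both vehicle libraries. The means were 0.741 ± 0.048 with A7 and 0.126 ± 0.106 with vehicle (SD, n = 2 each), 5.86-fold higher with A7. By estimated fragments there were about 31.4 and 22.8 with A7 and 4.46 and 1.12 with vehicle, and the ratio of the summed, rounded fragments corrected for depth was 5.41 (95% counting interval 2.33 to 15.4). With depth taken from the most frequent step, chosen after seeing the data, about 38 fragments with A7 stood against 6 with vehicle. The ratio was then 5.34 (2.24 to 15.4). Depth enters the ratio only as the weight of each library within its group, so another depth could hardly move it. The ratio restates the FPKM values and is no second line of evidence. Both intervals cover counting error only. When every gene above 0 in at least 1 library was fitted (16276 genes), the log2 difference was 0.63 (SE 0.12), with an unadjusted limma p of 0.00712 and an adjusted p of 0.703, so it did not pass. In that fit 3.53% of genes were higher at an unadjusted p under 0.05 and 0% passed at an adjusted p under 0.05 in either direction.

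Genes as low as IGF2R leaned towards A7 in general. Of 620 genes with a mean FPKM from 0.1 to 1 and a transcript of 6000 bases or more, 396 were higher and 224 lower by their means with A7, at a median log2 ratio of 0.204. In that set 1.94% of genes were at least 4-fold higher with A7 without overlap and 1.13% were at least 4-fold lower, and IGF2R and the ligand gene IGF1 were among the higher ones. The cutoffs of level, length and fold were not planned beforehand and fit the values of IGF2R, so its place among these genes adds no evidence. More of these genes were listed at 0 in the vehicle libraries (5.16% and 4.03%) than in the A7 libraries (1.77% and 2.58%), and the part of depth in the difference of IGF2R was not tested. The lysosomal sorting receptor M6PR, a relative of IGF2R that binds mannose 6-phosphate but not IGF2, stood at 65.7 and 83.2 with A7 and at 73.1 and 65.2 with vehicle (log2 difference 0.098, limma adjusted p = 0.927).

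**Figure D2:**
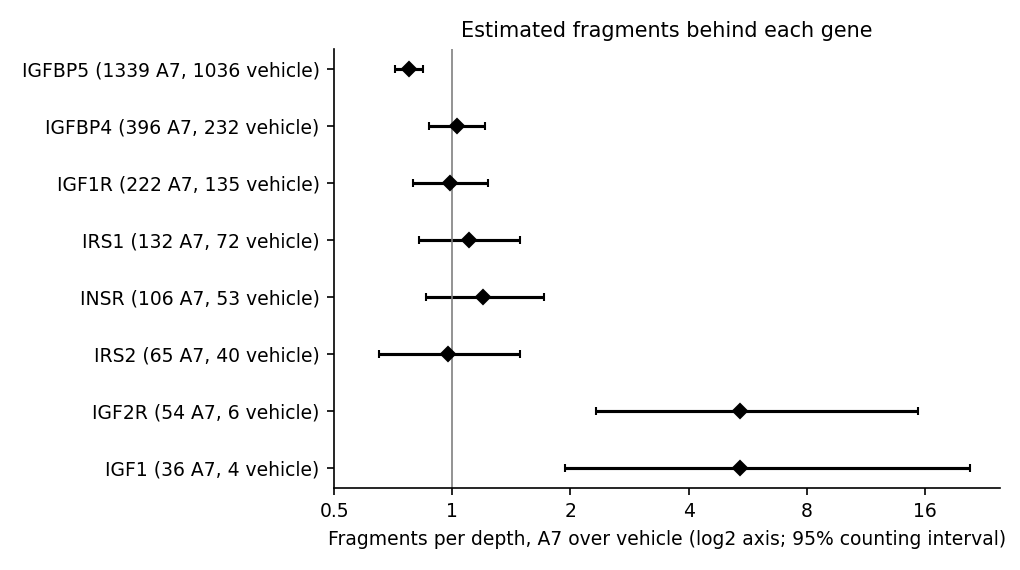
Ratio of estimated fragments per depth, A7 over vehicle (log2 axis), with 95% exact counting intervals and the fragments behind each gene given beside its name. IGF2R and IGF1 both lie at 5.41 with wide intervals, IGFBP5 lies at 0.777, and the intervals of the other 5 genes include 1.

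The ligand genes were close to absent. INS was listed at 0 in all 4 libraries, and IGF2 rested on about 1 fragment with A7 and 2 with vehicle. IGF1, which in breast tissue comes mainly from stromal cells, stood at 0.749 and 0.450 scaled FPKM with A7 and at 0.0868 and 0.132 with vehicle. Both A7 values lay above both vehicle values, on about 24.5 and 11.7 fragments with A7 and 1.55 and 2.33 with vehicle. The counting interval of the ratio per depth, 5.41, was 1.94 to 20.9. In the fit of every gene above 0 in at least 1 library, IGF1 had an unadjusted limma p of 0.019 and an adjusted p of 0.731, so it did not pass. The summed fibroblast markers described above were also highest in A7 replicate 1, the library with the most IGF1 and the most IGF2R. Without that library the log2 difference was 0.603 for IGF2R, against 0.631 with it, and 0.386 for IGF1, against 0.522. In bulk RNA fewer cells of a type and less RNA per cell cannot be told apart. The part of fibroblast RNA in the levels of IGF1 and of IGF2R was not tested.

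**Figure D3:**
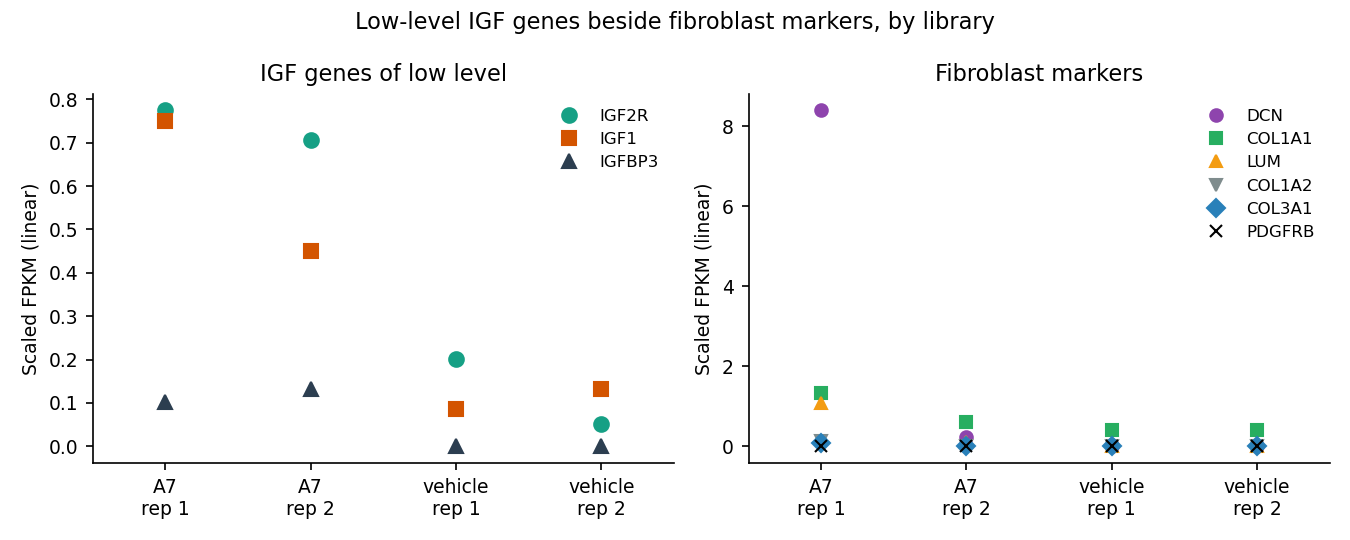
Scaled FPKM (linear axes) per library of IGF2R, IGF1 and IGFBP3 (left) and of the 6 fibroblast markers (right), with the A7 libraries left of the vehicle libraries. In A7 replicates 1 and 2, IGF2R was at 0.775 and 0.707, IGF1 at 0.749 and 0.450, and DCN at 8.40 and 0.230.

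Across all 6 tested members none passed at a limma adjusted p under 0.05, where 0.0223% of all tested genes did, and none had an unadjusted p under 0.05, where 5.76% of all genes did. The log2 difference was above 0 for 3 members and below 0 for 3, with a median log2 difference of 0.0059 beside -0.0019 for all 8952 genes. In simulated libraries with the same spread, 200 genes with a mean log2(scaled FPKM + 1) above 2 were changed. Of these, 34.6% of 2-fold and 92.7% of 4-fold changes were recovered, and only IGFBP4 and IGFBP5 of the 9 genes reach that level. In the data only 2 of 8952 genes passed. The adjustment is stricter where fewer genes change, and recovery with fewer changed genes was not simulated, so these shares need not hold here.

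The rest of the pathway, in 7 lists of 80 genes that share none with the 9, likewise held no gene that passed. Of the 43 tested genes, 27 had a log2 difference above 0 (higher with A7) and 16 below 0, with a median of 0.085. The counts of each list that follow go by the sign of this difference. Groups did not overlap for 11 higher and 4 lower genes, 34.9% of those tested, beside 18.3% higher and 18.6% lower among all genes. At an unadjusted p under 0.05 there was 1 gene, PTPN2. Among the negative regulators of the receptors (9 of 14 tested, 7 higher and 2 lower), 2 tyrosine phosphatases that act on the insulin receptor lay in opposite directions. PTPN2 stood at 9.65 and 11.7 scaled FPKM with A7 and at 14.4 and 17.2 with vehicle (log2 difference -0.53, SE 0.18). Its limma p was 0.0264 without adjustment and 0.806 after it. PTPN1, its close homolog, stood at 3.08 and 2.08 with A7 and at 1.75 and 1.09 with vehicle (log2 difference 0.57, SE 0.26, limma adjusted p = 0.806). Neither passed. The groups were separate for both, as for 36.9% of all tested genes, and both were named for the smallest p of their list. GRB14, an adaptor that inhibits the insulin receptor, stood at 0.909 and 0.733 with A7 and at 1.03 and 1.68 with vehicle.

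In the PI3-kinase, AKT and MTOR list 19 of 27 genes were tested, 9 higher and 10 lower, with a median of -0.012. Groups did not overlap for 36.8% of the tested genes of this list, beside 36.9% of all tested genes. Of the PI3-kinase regulatory subunits, 2 had groups that did not overlap. PIK3R1 stood at 3.08 and 2.94 scaled FPKM with A7 and at 2.26 and 1.85 with vehicle, and PIK3R3 at 8.63 and 9.31 with A7 and at 7.72 and 6.82 with vehicle (log2 differences 0.40 and 0.27, limma adjusted p = 0.806 for both). MLST8, a subunit of both MTOR complexes, stood at 1.68 and 1.40 with A7 and at 3.83 and 2.12 with vehicle (log2 difference -0.61, SE 0.27, limma adjusted p = 0.806). Without vehicle replicate 1 the difference of MLST8 was -0.301 and without vehicle replicate 2 it was -0.924. The groups did not overlap for these 3 genes, and none of the 3 passed. They were named for the smallest p of their list, so their separation adds no evidence. Among the other adaptors (8 of 14 tested, 6 higher and 2 lower), SOS2, a RAS exchange factor, stood at 2.15 and 1.74 with A7 and at 1.27 and 1.49 with vehicle. CRKL stood at 11.4 and 11.5 with A7 and at 11.5 and 16.9 with vehicle, and CRK at 29.1 and 23.3 with A7 and at 22.7 and 24.5 with vehicle.

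Of 12 proteases that cut binding proteins and their inhibitors 5 were tested, 3 higher and 2 lower. The serine protease HTRA1, which can cleave IGFBP5, stood at 4.03 and 3.88 scaled FPKM with A7 and at 3.83 and 2.10 with vehicle (log2 difference 0.36, SE 0.26, limma adjusted p = 0.823). It rested on vehicle replicate 2, without which it was 0.0414, and it was 0.676 without vehicle replicate 1. TIMP1, an inhibitor of metalloproteinases, stood at 71.7 and 60.3 with A7 and at 68.2 and 77.9 with vehicle, and STC1, which inhibits PAPPA, at 3.59 and 3.70 with A7 and at 2.70 and 4.07 with vehicle. PAPPA itself, the protease of IGFBP4, was listed at 0 in every library. The same held for IGFBP1, IGFBP6, IGFALS, INSRR and IRS4, genes outside the naming rule that were chosen after their values were seen. Of the FOXO factors, which AKT keeps out of the nucleus, FOXO3 alone was tested, at 6.66 and 6.02 with A7 and at 5.00 and 7.31 with vehicle.

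Below the test's minimum, 2 genes of these lists are named after their values were seen. CISH, a feedback inhibitor of cytokine receptors, stood at 0.862 and 0.469 scaled FPKM with A7 and was listed at 0 in both vehicle libraries. DOK4, a docking protein of the insulin receptor, stood at 0.0952 and 0.121 with A7 and at 0.703 and 0.357 with vehicle. Among 4663 genes with a mean FPKM from 0.1 to 1, 12.5% were at least 2-fold higher and 7.06% at least 2-fold lower with A7 without overlap, and neither gene was tested.

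**Figure D4:**
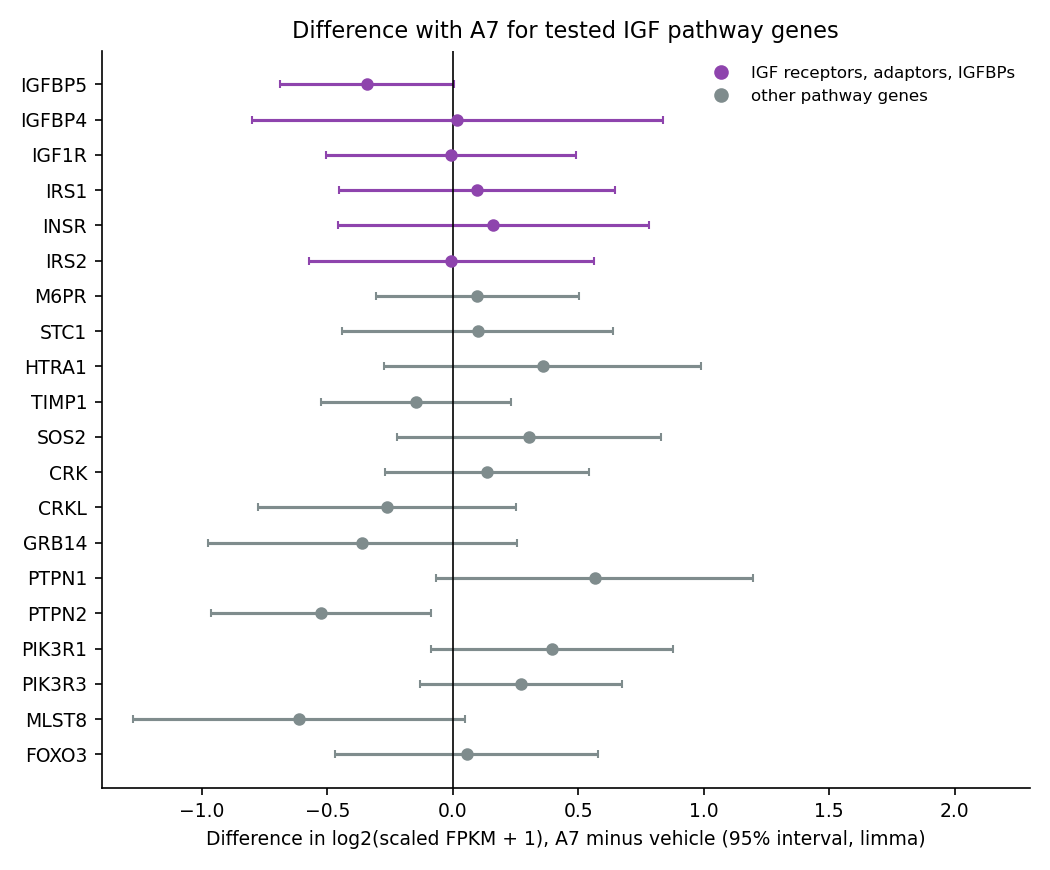
Difference in log2(scaled FPKM + 1), A7 minus vehicle, with 95% limma intervals for the 6 tested members (purple) and 14 other pathway genes (grey). The interval of PTPN2 alone lies on one side of 0, at -0.96 to -0.087 and without adjustment, and that of IGFBP5 ends at 0.0032.

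The genes most like IGFBP5 over the 4 libraries, by Euclidean distance between log2(scaled FPKM + 1) values centred on each gene's mean and among the 3279 other genes averaging at least 10 FPKM, were RAB25 (distance 0.0174), MGC72080 (0.0278) and TPD52L1 (0.0398). RAB25, a small GTPase of epithelial recycling, stood at 49.6 and 48.4 scaled FPKM with A7 and at 66.7 and 59.4 with vehicle. Within a distance of 0.2 lay 332 of the 8951 other tested genes.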

How the data were processed

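Per the labels' protocols, total RNA of 2 A7 and 2 vehicle samples was copied with a SMARTer PCR cDNA kit, fragmented and ligated, and no step there marks the strand. Per the file headers, the authors deposited FPKM per gene symbol in a table for each library. The submitters' processing notes name CASAVA 1.8.2, TopHat, Cufflinks 2.2.1 and GRCh37 without saying what each did. How reads with several matches were handled and which annotation was used is not given in the sources used here, and sequence copies of the members were not searched. Of 23619 lines, 14 had a whole number as symbol (at most 0.00539% of summed FPKM) and were left out.

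Libraries were scaled by median ratios (factors 0.990 and 1.02 for A7, 1.00 and 1.01 for vehicle). Limma 3.58.1 (R 4.3.3) was run on the 8952 genes averaging at least 1 FPKM, on log2(scaled FPKM + 1), with a variance trend, two-sided, and Benjamini-Hochberg adjustment at 0.05 over all of them. The pseudocount makes fold changes of low genes look smaller. The model left 2 residual and 3.89 prior degrees of freedom. An exact permutation of 2 against 2 samples cannot reach 0.05 and was not used. The code was tested on simulated data (10 simulations of 8952 genes).

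Fragments were estimated from the FPKM worth of the lowest step, GENCODE 29 transcript lengths (the shortest protein-coding transcript of at least 0.6 times the longest) less 150 bases, and exact binomial intervals (95%). Named are the 9 members, the 3 ligands and up to 3 tested genes with the smallest p of each pathway list. The members and lists were chosen with earlier results of these data known. Alternatives were TPM, quantile normalization, a pseudocount of 0.1, no filter, the replicate number as a block, and leaving out each library.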

Additional observations from a re-analysis of the deposited data

How the results depend on the processing

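None of the 25 genes refitted under the alternatives (the members, the ligands IGF1 and IGF2, and the named pathway genes) passed under any of the 10 that could be fitted for it (smallest limma adjusted p 0.469), and the count of members called stayed at 0 in each. IGFBP5 was lower with A7 under all 10, between -0.418 (without vehicle replicate 2) and -0.125 (TPM, or -0.299 against the shift of all genes), with an unadjusted p from 0.0257 to 0.467 and an adjusted p from 0.501 to 0.967. IGF2R was higher in all 6 of its alternatives, between 0.534 and 1.98, the upper end with no filter and a pseudocount of 0.1 together, an alternative chosen after seeing the data (unadjusted p = 0.0218, adjusted p = 0.609). Of 230 single-gene values 19 changed sign, 3 of them for IGFBP2 and IGF2, which rest on 2 fragments or fewer in each group. With TPM, IGF1R was at 0.135, IRS2 at 0.0958 and TIMP1 at 0.075, which count among the changes of sign. Against the shift of all genes they were at -0.039, -0.078 and -0.099, below 0 as in the main fit. Leaving out 1 library gave ranges of -0.112 to 0.0972 for IGF1R, -0.073 to 0.40 for INSR, -0.0629 to 0.259 for IRS1, -0.115 to 0.107 for IRS2, -0.366 to 0.403 for IGFBP4, -0.0648 to 0.266 for M6PR, -0.129 to 0.33 for STC1, -0.0159 to 0.295 for CRK and -0.182 to 0.294 for FOXO3. It also moved HTRA1 (0.0414 to 0.676), MLST8 (-0.924 to -0.301), CRKL (-0.521 to -0.00282), GRB14 (-0.561 to -0.16), PTPN1 (0.363 to 0.773) and TIMP1 (-0.267 to -0.0194) by over 1.5 times with no change of sign. The cause was not tested. Depth from the most frequent step gave a ratio of fragments of 0.779 for IGFBP5 and 5.06 for IGF1. That change only reweights the libraries within a group, so it could hardly move the ratio and is no test of it. The members' median was 0.174 with TPM, the same as the median of all genes, and lay between -0.068 and 0.105 when 1 library was left out (0.105 without vehicle replicate 1).

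Over all genes 1 was called higher and 1 lower. With no filter, with the replicate block, and with no filter and a pseudocount of 0.1 together, no gene was called (0 higher, 0 lower). A pseudocount of 0.1 alone left 0 lower, and with TPM or quantile normalization 2 were lower. Leaving out 1 library gave 0 to 9 higher and 0 to 7 lower. Samples with the same replicate number deviated together only weakly (correlation 0.0906 across genes), so the numbers were not taken as pairs. The median absolute log2 difference was nevertheless 0.192 and 0.216 between samples of the same number, replicates 1 and 2. It was 0.201 within A7 and 0.224 within vehicle. Between A7 replicate 1 and vehicle replicate 2 it was 0.257, and between A7 replicate 2 and vehicle replicate 1 it was 0.213. With the replicate block the difference of IGFBP4 stayed at 0.0176 and its SE was 0.106 in place of 0.334. Depth limits IGFBP2, IGFBP3 and IGF2, with 3 or fewer estimated fragments in any group.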
